A study of Mus musculus with 9 samples.

Results

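Anxa8 encodes annexin A8, a member of the annexin family of calcium-dependent membrane-binding proteins, and its mRNA was followed in mouse lung by 1 probe, A_51_P207591. Anxa8 was chosen by its measured values on these arrays, the normalised levels described here, so its levels across the groups are given as a description, without a test. Symbols were assigned here only to the 50 probes printed 10 times, out of 60691 probes used. Anxa8 is 1 of the 46 genes named in this way. RNA came from the right lung of male C57BL/6J mice aged 20 weeks, with 1 mouse per array and 3 mice per group. The control group received a normal diet and sterile saline. The HFD group ate a diet with 60% of calories as fat for 12 weeks and was given sterile saline. The HFD+LPS group ate the same diet for 12 weeks and was given LPS through the trachea, and lungs were collected 24 h later. Body weight was given as 31 g for control mice and 45 g for both HFD groups. No group combined LPS with the normal diet, so the LPS comparison refers to obese mice alone. The model thus combines diet, body weight and, in the third group, acute lung injury in whole lung tissue.

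Annexins bind acidic phospholipids through repeated core domains when calcium rises, and they take part in membrane traffic, membrane repair and inflammation. Annexin A8 is found on late endosomes and at the plasma membrane, and it was first described as an anticoagulant protein. In endothelial cells it is known to be needed for the delivery of CD63 to the cell surface, a step that supports P-selectin and the capture of leukocytes. In epithelia it is known from basal and squamous cells. In RefSeq, Anxa8 lies on chromosome 14, together with Anxa7 and Anxa11 from the same family, so that 3 of the 12 mouse annexin genes share this chromosome. In that annotation, Anxa8 lies wholly within the span of the gene A630023A22Rik. The probe sequence was not used here, so the exons it covers are unknown. It is also unknown whether the probe detects A630023A22Rik transcripts, which would then be part of the values given for Anxa8.

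The probe was printed in 10 places on each array. All 10 spots were well above the local background on every array. The scanner software marked 1 spot as an outlier on each of 5 arrays, and these spots were left out. The geometric mean intensity over the spots used was 1207, 1187 and 1188 on control arrays 1, 2 and 3. It was 586, 1333 and 1221 on the HFD arrays and 1130, 1214 and 2588 on the HFD+LPS arrays. Before normalisation, the control arrays were thus nearly identical for Anxa8, with an SD of 0.014 (log2, n = 3), whereas the SD was 0.65 in the HFD group and 0.66 in the HFD+LPS group (n = 3 each). HFD replicate 1 lay far below the other arrays and HFD+LPS replicate 3 far above them, and the intensity of the other HFD and HFD+LPS arrays was close to that of the control arrays.

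To compare arrays, the level was defined as the mean log2 intensity minus the 75th percentile of all probes on that array, which is a measure of how bright the array was. The level in control mice was 4.62, 4.55 and 4.46. In HFD mice it was 3.74, 4.16 and 4.37, and in HFD+LPS mice it was 4.01, 4.25 and 4.76. The control mice lay in a narrow band in the upper part of the range, the HFD mice lay below that band, and the HFD+LPS mice were spread over both. The group means were 4.54 ± 0.08 in control, 4.09 ± 0.32 in HFD and 4.34 ± 0.38 in HFD+LPS (log2, SD, n = 3 each). Anxa8 was therefore highest in control and lowest in HFD lungs by the means, and the HFD+LPS mean lay within its own SD of both other means. Since whole lung was measured, fewer cells that express Anxa8 and less Anxa8 mRNA per cell cannot be told apart.

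**Figure D1:**
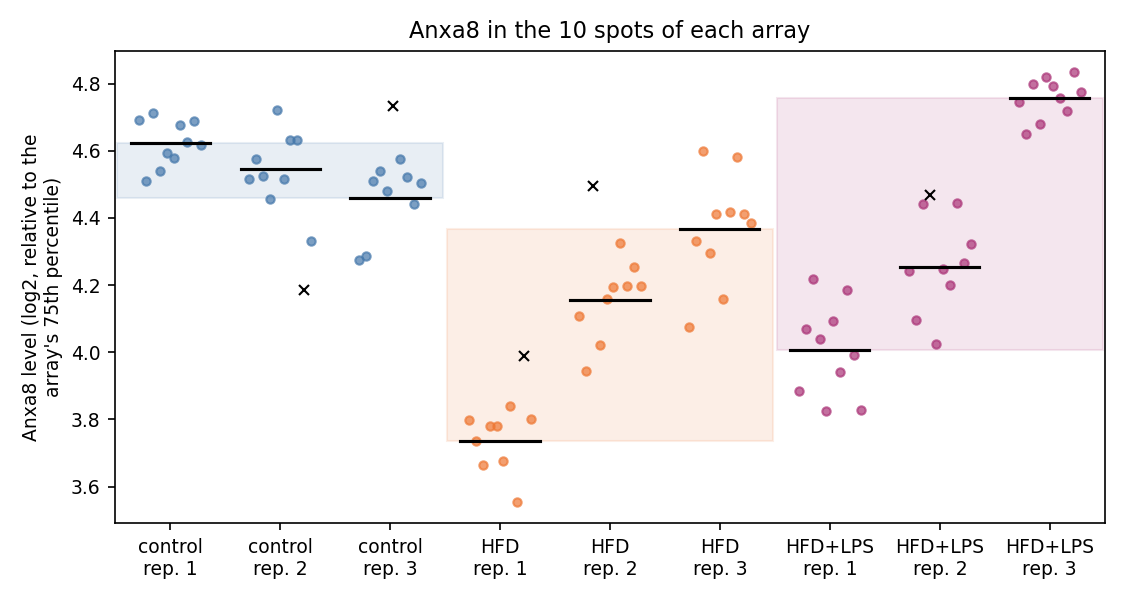
Level of Anxa8 (log2, relative to the 75th percentile of the array) in each of the 10 spots on the 9 arrays. Points are spots used, crosses are spots marked as outliers, black lines are the array means, and shaded bands run from the lowest to the highest mean of a group; the HFD band (3.74 to 4.37) lies below the control band (4.46 to 4.62), and the HFD+LPS band (4.01 to 4.76) covers both in part.

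The first comparison addresses the diet. Anxa8 was lower in HFD than in control lungs by 0.46 on the log2 scale, which is a 1.37-fold lower level. Each of the 9 pairs of 1 HFD and 1 control mouse had the lower level in the HFD mouse, and the difference within such a pair ran from -0.89 to -0.09. The groups did not overlap, and among the 29978 probes tested in this comparison 11.8% had groups without overlap. The gap between the groups, from HFD replicate 3 to control replicate 3, was 0.093. At the 10 printed positions, outlier spots included, HFD replicate 3 had the lower level than control replicate 3 in 7, whereas it was lower than control replicate 1 in all 10. The highest HFD and the lowest control array thus differed in most spots but not in every spot. In absolute size, the difference of Anxa8 exceeded that of 82.4% of the probes tested, whose median absolute log2 fold change was 0.19. Anxa8 was chosen by these values, and nearly all other probes were printed once, so this rank is a description.

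Among the mice, HFD replicate 1 weighed most in this difference, which was -0.28 without it and stayed between -0.60 and -0.42 when any other mouse was left out. The absence of overlap was kept under 6 of the 7 ways of computing the values (other normalisations, background correction and handling of spots), with a gap from 0.035 to 0.12. Without normalisation between arrays the groups overlapped, and the difference was again -0.28.

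The arrays differed in brightness, and apart from HFD replicate 1 and HFD+LPS replicate 3 the brighter arrays mostly had the lower Anxa8 levels. The 75th percentile was 5.61, 5.67 and 5.75 (log2 intensity) on control arrays 1, 2 and 3, and 5.46, 6.22 and 5.89 on the HFD arrays. HFD replicates 2 and 3 had an Anxa8 intensity slightly above that of the control arrays on brighter arrays, and their levels fell below the control levels once brightness was subtracted. HFD replicate 1 was the dimmest array, and its Anxa8 intensity was further below the control arrays than its brightness was. Across the 9 arrays, the brightness covered a range of 1.12 and the intensity of Anxa8 a range of 2.14 (log2). With brightness as a covariate, a setting added after the values were seen, the difference between HFD and control was -0.59. The part of brightness in the result was not tested further.

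**Figure D2:**
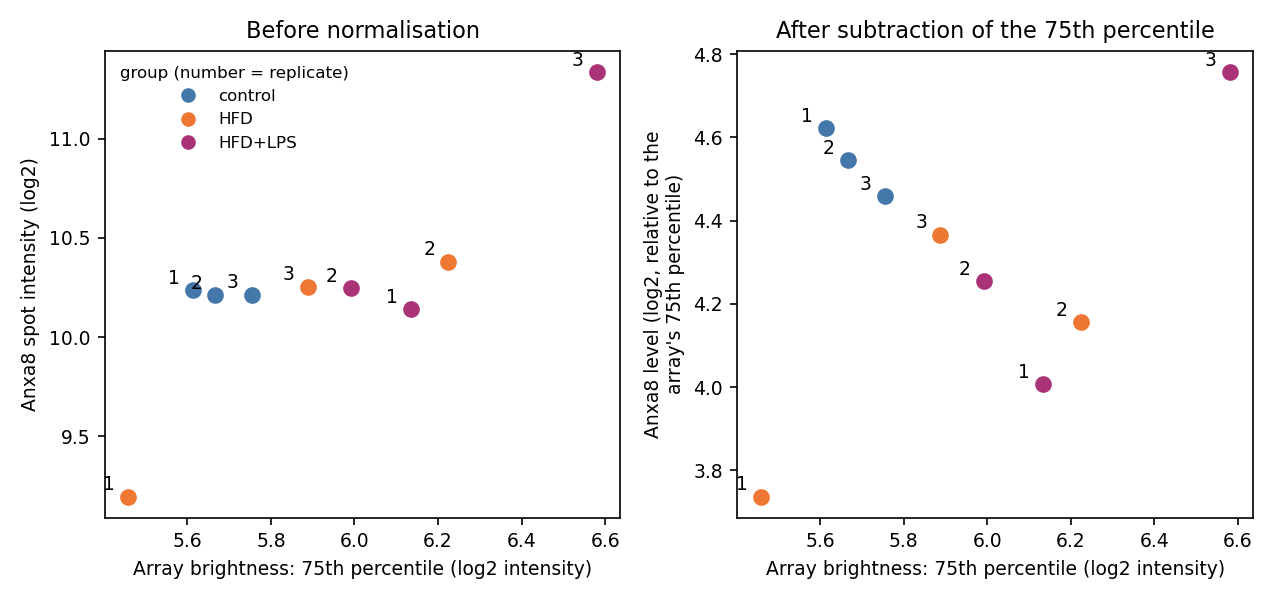
Intensity of Anxa8 before normalisation (left, log2) and its level after subtraction of the 75th percentile (right, log2) against array brightness (log2 intensity), with 1 point per array and replicate numbers beside the points. Intensities of 7 arrays lie between 1130 and 1333 in linear units while their brightness rises from 5.61 to 6.22, so their levels fall from left to right, with HFD replicate 2 slightly above HFD+LPS replicate 1 at the end; HFD replicate 1 (586) and HFD+LPS replicate 3 (2588) lie apart at the dim and the bright end.

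The second comparison addresses LPS in obese mice. The mean level of Anxa8 was 0.25 higher on the log2 scale in HFD+LPS than in HFD lungs, a 1.19-fold difference that was smaller than the SD between mice of a group (0.29, pooled over the 3 groups). The groups overlapped, whereas 22.9% of the 29698 probes tested had groups without overlap. In 6 of the 9 pairs of mice the HFD+LPS mouse had the higher level, and in the other 3 the HFD mouse did. The pairs ran from -0.36 to 1.02. In absolute size, 40.2% of the probes tested had a smaller difference than Anxa8. The difference was 0.13 with quantile normalisation, 0.15 with the percentile over detected probes and 0.63 without normalisation between arrays. It turned to -0.023 with brightness as a covariate.

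HFD replicate 1 lay at the bottom and HFD+LPS replicate 3 at the top of the whole range. The difference was 0.079 without the first of these and 0.045 without the second. Both were left out together after their values were seen, a choice that lowers the difference by construction, and it was then -0.13. HFD+LPS replicate 3 had a scan date of its own, from which a second slide was inferred. HFD+LPS replicate 3 was also the brightest array, with a 75th percentile of 6.58. Its Anxa8 spots agreed closely, with an SD of 0.060 (log2) over 10 spots, and at all 10 positions its level was above that of control replicate 1, the next array in the order. On HFD+LPS replicate 2 the fewest probes stood well above background, 32.5% against 40.5% to 55.6% elsewhere, and without it the difference was 0.30. Without HFD+LPS replicate 1 it was 0.42, and without HFD replicate 3 it was 0.39.

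The third comparison set obese mice given LPS against lean mice given saline. The mean level of Anxa8 was lower by 0.20 (log2) in HFD+LPS than in control lungs, 1.15-fold, which was again smaller than the SD between mice. The groups overlapped, whereas 29.9% of the 28264 probes tested had groups without overlap. HFD+LPS replicates 1 and 2 lay below all control mice and HFD+LPS replicate 3 lay above all of them, so that 3 of 9 pairs had the higher level in the HFD+LPS mouse. Leaving out HFD+LPS replicate 3 gave -0.41, and leaving out HFD+LPS replicate 1 gave -0.037. It turned to 0.35 without normalisation between arrays and to 0.010 with normexp background correction applied to median spot signals. It was -0.34 with quantile normalisation and also with the percentile over detected probes, and -0.61 with brightness as a covariate, so the settings did not share a direction. The difference of Anxa8 was larger in absolute size than that of 28.5% of the probes tested.

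**Figure D3:**
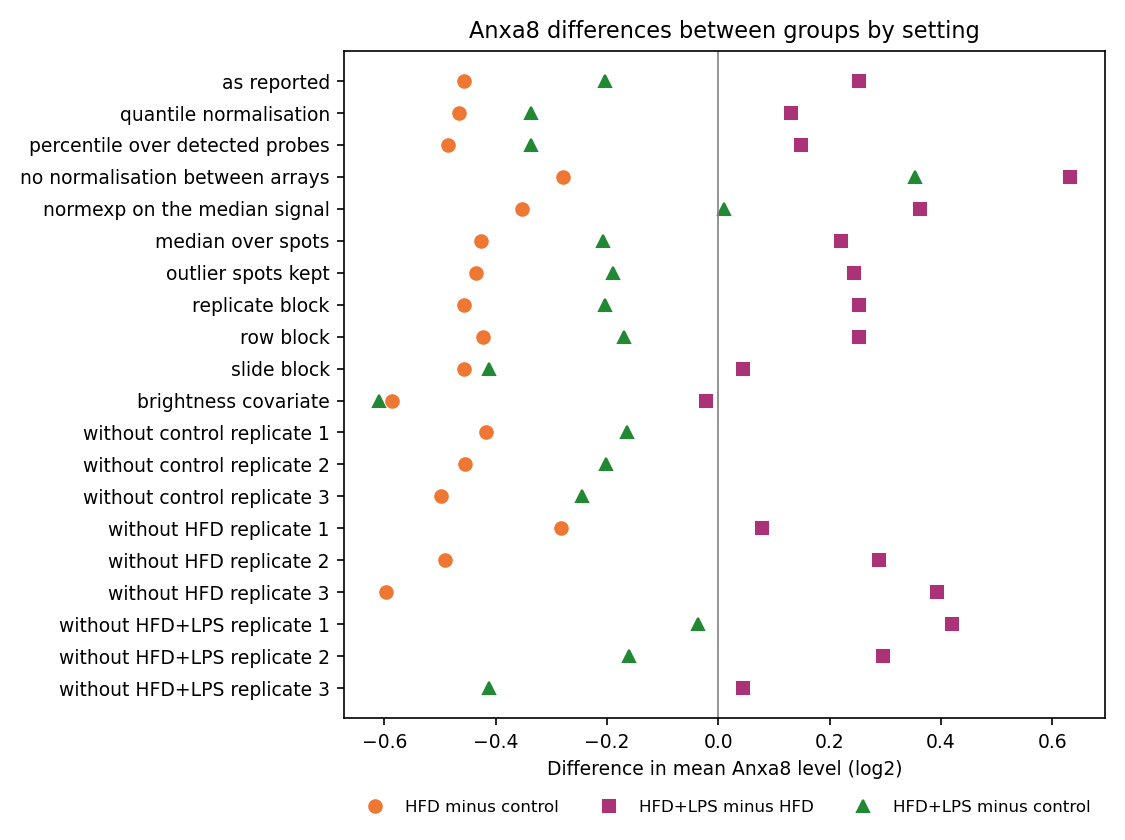
Difference in the mean level of Anxa8 (log2) between groups, as reported and under alternative settings. These change 1 choice at a time, except that normexp also changes the spot signal to the median. The comparisons are orange circles (HFD minus control), purple squares (HFD+LPS minus HFD) and green triangles (HFD+LPS minus control). The circles stay left of 0 in every setting drawn, from -0.60 to -0.28, whereas triangles lie on both sides of 0 and the square for the brightness covariate lies just left of it.

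The arrays also lay in different rows of their slide. Row 1 held all control arrays together with HFD replicate 1 and, on the inferred second slide, HFD+LPS replicate 3. Row 2 held the other arrays. Within row 1, HFD replicate 1 was 0.81 below the control mean and HFD+LPS replicate 3 was 0.21 above it. Within row 2, the mean level was 4.26 in the 2 HFD mice and 4.13 in the 2 HFD+LPS mice, a difference of -0.13. Row 2 holds the same 4 arrays that remain when HFD replicate 1 and HFD+LPS replicate 3 are left out, so this is the same value as above. The highest and the lowest Anxa8 level of the series were both found in row 1.

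The 10 spots show the error of reading Anxa8 on 1 array. The SD between spots of an array was 0.12 (log2), which gives a standard error of 0.037 for an array mean. The SD between mice of a group was 0.29, 2.53 times that between spots. With 1 array per mouse, the SD between mice also holds differences in labelling, hybridisation and array, which cannot be told apart from differences between the animals. The order of the 9 arrays ran from HFD+LPS replicate 3 through control replicates 1, 2 and 3, HFD replicate 3, HFD+LPS replicate 2, HFD replicate 2 and HFD+LPS replicate 1 to HFD replicate 1. The steps between neighbours in this order were 0.078 to 0.15, apart from the last one to HFD replicate 1, which was 0.27. Of the 27 probes with a symbol, Anxa8 included and each printed 10 times, that were well above background on all 9 arrays, 15 had a smaller SD between mice than Anxa8. Of all 17932 probes well above background on all 9 arrays, nearly all printed once, 47.9% had a smaller SD, and the median SD was 0.30. The deviations of the spots from their array mean, outlier spots included, correlated between pairs of arrays with r from -0.62 to 0.80 over the 10 positions (mean 0.11). Some positions deviated in 1 direction on most arrays: the spot in array row 136 and column 79 was above the array mean on 8 of 9 arrays, by 0.11 on average (log2), and the spot in row 66 and column 84 was above it on 2 of 9, with a mean deviation of -0.087.

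Of the 60 gene symbols listed for comparison, from the annexins and S100 proteins to epithelial injury, squamous cells and LPS response, 2 were matched to a probe, Anxa8 itself and Rab5a. Other annexins could therefore not be set beside Anxa8, and for the same reason none of the 51 marker genes of lung cell types was available to check the tissue. Probes printed once were given no symbol here, so whether they measured these genes was not examined. Rab5a encodes a small GTPase of early endosomes, the stage before the late endosomes where annexin A8 is found. Its level was 4.21, 4.53 and 4.22 in control mice, 4.40, 4.63 and 4.75 in HFD mice and 4.89, 5.15 and 5.06 in HFD+LPS mice. The HFD+LPS mice lay above all other mice, and the HFD and control mice overlapped. Groups without overlap, in either direction, were common among the probes tested, with 22.9% between HFD+LPS and HFD and 29.9% between HFD+LPS and control.

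Tested with limma across all probes, Rab5a did not pass the threshold of 0.05 in any of the 3 comparisons. Between HFD and control its log2 fold change was 0.27 with a standard error of 0.21 (limma, adjusted p = 1.00). In that comparison limma called 0% of the 29978 probes tested, and 1353 of them had an unadjusted p under 0.05. The methods' t-test gave 1783 without and 0 after adjustment. Between HFD+LPS and HFD the log2 fold change of Rab5a was 0.44 with a standard error of 0.21 (limma, adjusted p = 0.296), where 0.249% of the probes were called. Between HFD+LPS and control it was 0.72 with a standard error of 0.20 (limma, adjusted p = 0.0715), where 4.01% of the probes were called. In this last comparison Rab5a passed with normexp (limma, adjusted p = 0.0296) and with a stricter detection filter, all 6 arrays in place of 3 (limma, adjusted p = 0.0467), within a range of 0.0296 to 0.296 over 18 settings. The pattern of Rab5a over the 9 arrays had a Pearson r of 0.01 with that of Anxa8, and of 0.57 when deviations from the group means were compared.

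Among the 39 other genes with a symbol and a signal well above background on at least 3 arrays, the Pearson r with Anxa8 over the 9 arrays ran from -0.62 to 0.74, with a median of 0.06. These values describe the arrays, which share groups and a normalisation. The highest r belonged to Mbp (0.74), which encodes myelin basic protein, followed by Chgb (0.70), a secretory granule protein of neuroendocrine cells, Pex11a (0.67), a factor of peroxisome division, the olfactory receptor Olfr1307 (0.61) and Mzb1 (0.59), a chaperone of plasma cells and marginal zone B cells.

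These 5 genes were picked for their high r with Anxa8 on the same arrays, so features they share with it follow in part from that choice. Chgb and Pex11a were well above background on all 9 arrays. The level of Chgb was 0.05, 0.35 and 0.60 in control mice, -0.64, -0.50 and -0.09 in HFD mice and -0.32, -0.08 and -0.07 in HFD+LPS mice. As for Anxa8, the HFD mice lay below the control mice and HFD replicate 1 was the lowest array, but HFD+LPS replicate 3 did not stand out. The level of Pex11a was 3.16, 3.39 and 3.48 in control mice, 2.69, 2.86 and 3.41 in HFD mice and 3.12, 2.91 and 3.17 in HFD+LPS mice, with HFD replicate 1 again at the bottom. The level of Mzb1 was 3.48, 2.61 and 2.52 in control mice, 1.59, 2.39 and 2.45 in HFD mice and 1.25, 1.53 and 1.84 in HFD+LPS mice. The HFD and the HFD+LPS mice thus lay below the control mice for this gene of plasma cells and B cells. As for Chgb, such a separation was common. Among all probes tested, 11.8% had HFD and control groups without overlap, and 29.9% had HFD+LPS and control groups without overlap. Mzb1 was not called in either comparison (limma, adjusted p = 0.9996 and 0.0526). Whether a change in the share of plasma cells and B cells has a part in the Anxa8 values was not tested. Mbp and Olfr1307 were well above background on 7 and 5 arrays, so part of their pattern lies near the background. Olfr1307 was at -0.20 in HFD+LPS replicate 3 and between -2.81 and -1.53 in the other mice. Mbp was lowest, at -3.12, in HFD replicate 1. Among the 26 other genes with a symbol that were well above background on all 9 arrays, HFD replicate 1 was the lowest array for 4, as were 3 other arrays, and control replicate 1 was the lowest for 7. HFD+LPS replicate 3 was the highest array for 6 of them, against 1 to 5 for each other array.

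The lowest r belonged to Cpt1a (-0.62), the enzyme that admits long-chain fatty acids to mitochondrial oxidation, Taf1a (-0.56), a subunit of the RNA polymerase I initiation complex, and Kcnn2 (-0.52), a calcium-activated potassium channel. The level of Cpt1a was 2.23, 2.73 and 2.63 in control mice, 3.51, 3.85 and 3.66 in HFD mice and 4.08, 3.85 and 3.29 in HFD+LPS mice. The mice with the highest Anxa8 levels in the control and HFD+LPS groups, control replicate 1 and HFD+LPS replicate 3, had the lowest Cpt1a levels of their groups. In the HFD group this was not so, since HFD replicate 1 had both the lowest Anxa8 and the lowest Cpt1a level and HFD replicate 3, with the highest Anxa8 level, had the middle Cpt1a level. Taf1a stayed between 1.03 and 1.65 over the 9 arrays. Kcnn2 was well above background on 4 arrays, namely all HFD arrays and control replicate 2. It passed the detection filter only through the HFD group, where it was highest and Anxa8 lowest by the mean, so its negative r follows in part from the filter.

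When deviations from the group means were compared in place of the levels, the gene most similar to Anxa8 was Dnajc11 (r = 0.89), a mitochondrial protein of the DnaJ family that was well above background on all 9 arrays and had an r of 0.32 over the levels. Dnajc11 was named after its values were seen. In that comparison 2 of the 5 most similar genes, Olfr1307 and Mzb1, were still among the first 5, with r of 0.86 and 0.77. For Mbp, Chgb and Pex11a the value was 0.61, 0.47 and 0.51. Cpt1a (-0.53) and Taf1a (-0.55) were still among the last 3.

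**Figure D4:**
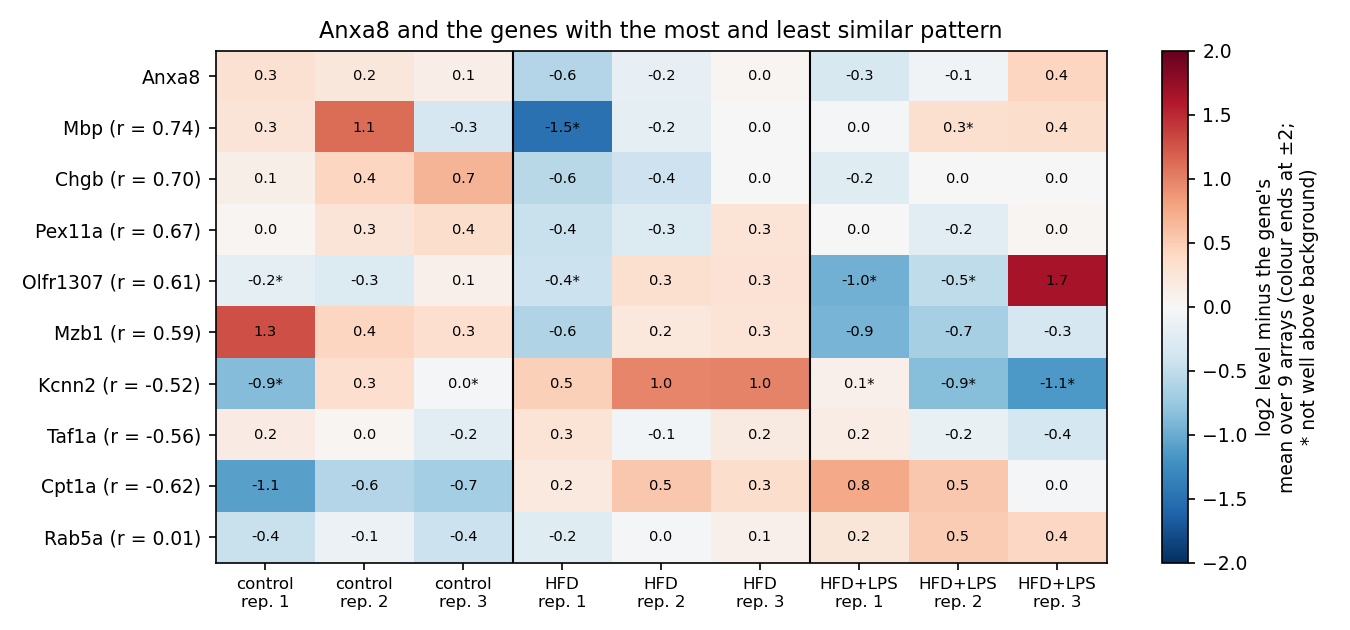
Level of Anxa8, of the 5 genes with the highest and the 3 genes with the lowest Pearson r to it, and of Rab5a on the 9 arrays, as log2 level minus the mean of the gene over the arrays. Red is above and blue below that mean, stars mark values not well above background, and r is given beside each name; Anxa8, Chgb and Pex11a are blue in HFD replicate 1, where Cpt1a is not.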

How the data were processed

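The authors hybridised Cy3-labelled cRNA, made by random priming after removal of rRNA, to 1-colour Agilent arrays. Spots were quantified by Agilent Feature Extraction 11.0.1.1, as the submitters' processing notes state. The deposited scanner files give the intensity of each spot after background subtraction and spatial detrending, not yet scaled between arrays. The authors also deposited log2 values made with GeneSpring GX for 60641 probes, each printed once. Anxa8 is not among them, and neither is Rab5a, so that table was not used.

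Here, control spots, 132 spike-in and design probes and outlier spots were left out, log2 intensities were averaged per probe, and each array was scaled by its 75th percentile. Of 50 probes printed 10 times, 46 were assigned a symbol through RefSeq transcripts (GRCm38.p6). Other genes were tested with limma 3.58.1 (R 4.3.3), using lmFit and eBayes on all 9 arrays with group as the single term and Benjamini-Hochberg adjustment. A probe was tested in a comparison if it was detected well above background on 3 or more of its 6 arrays. The limma step was tested on simulated data. Group labels came from the sample titles. No spot was saturated. The array number limits the precision.

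The 7 ways of computing Anxa8 values were the reported one, quantile normalisation, the percentile over probes detected on all 9 arrays, no normalisation, normexp (offset 50) on median spot signals, the median over spots, and outlier spots kept. Named genes were Anxa8, the 5 most and 3 least similar genes, and measured members of the gene lists. The gene, the lists and the tests were chosen with earlier results of these data known.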

Additional observations from a re-analysis of the deposited data

How the results depend on the processing

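The difference in Anxa8 between HFD and control was negative in all 16 alternatives run, each within 1 SD between mice (0.29) of the reported value, with -0.60 to -0.28 when each array was left out in turn. The difference between HFD+LPS and HFD (0.25) was 0.045 to 0.42 with 1 array left out, 0.63 without normalisation between arrays, -0.13 without HFD replicate 1 and HFD+LPS replicate 3, and -0.023 with brightness as a covariate. The difference between HFD+LPS and control (-0.20) was -0.41 to -0.037 with 1 array left out, 0.35 without normalisation between arrays and -0.61 with the brightness covariate. The brightness covariate and the removal of both arrays were chosen after the data were seen. For these settings the cause was not tested, except that without normalisation the brightness of the arrays stays in the values. With a replicate block in the fit, the differences were -0.46, 0.25 and -0.20, as in the reported fit, since the block is balanced. With the slide, inferred from the scan date, as a block they were -0.46, 0.045 and -0.41. The same values were found without HFD+LPS replicate 3, the single array of the inferred second slide. With the array row as a block the differences were -0.42, 0.25 and -0.17. Mice that share a replicate number were not treated as paired, since the correlation of their deviations was 0.37, 0.04 and 0.02 for HFD with control. Rab5a counted as called (1 gene of the lists, against 0 as reported) with the methods' t-test without adjustment in both LPS comparisons, and in HFD+LPS vs. control also with normexp (1) and with the stricter detection filter (1). The authors' log2 values hold neither Anxa8 nor Rab5a and gave no alternative.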
